A study of Mus musculus with 2 samples.

Results

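The Tdpoz genes Tdpoz1, Tdpoz2, Tdpoz3, Tdpoz4 and Tdpoz5 form a cluster on mouse chromosome 3. They were chosen by name, 5 genes in all, beside 22367 protein-coding genes annotated in mm9 and 21887 in mm10. The sequence from the first to the last of them, with 100 kb added on each side, was examined with them and is called the Tdpoz span. ChIP-seq for H3K9me3, the trimethylated form of histone H3 at lysine 9, was carried out in E14TG2a.4, a male mouse embryonic stem cell line of strain 129/Ola. The samples form 1 group of 2 biological replicates, each with its own biosample and both from the same donor line, so they describe 1 line and hold no second genotype, treatment or time. No control library was analysed here, and the deposited files are peak lists, so the depth of each replicate is unknown. With 1 group there is no contrast to test, and each value of the Tdpoz genes is set beside the same value over all genes or over the chromosomes.

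Tdpoz proteins pair a TRAF domain, also called MATH, with a POZ domain, also called BTB. They are relatives of Spop, an adaptor that brings substrates to the CUL3 ubiquitin ligase. The mouse Tdpoz genes are known for transcripts in the oocyte and the early embryo around the 2-cell stage, while most cells of an embryonic stem cell culture keep genes of that stage silent. H3K9me3 is laid down by methyltransferases such as Setdb1 and Suv39h1 and is known from silent chromatin, above all at repeats and retroviral copies.

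All 5 genes are short and are close copies of one another. In mm9, with the GENCODE M1 annotation, Tdpoz2 is at chr3:93455493-93456585 on the minus strand, Tdpoz1 at chr3:93474184-93475418 on the minus strand, Tdpoz4 at chr3:93600320-93601432 on the plus strand, Tdpoz3 at chr3:93629942-93631039 on the plus strand and Tdpoz5 at chr3:93764214-93765236 on the minus strand. Tdpoz2 is annotated there as a pseudogene and the other 4 as protein-coding. In mm10, with RefSeq positions of GRCm38.p6, the genes stand in the same order and all 5 are protein-coding. Tdpoz2 is there at chr3:93651542-93652686, Tdpoz1 at chr3:93669333-93676283, Tdpoz4 at chr3:93796398-93797510, Tdpoz3 at chr3:93826020-93827117 and Tdpoz5 at chr3:93960292-93961314. The RefSeq model of Tdpoz1 is 6.95 kb long, against 1.24 kb in mm9, and the other 4 are 1.02 to 1.15 kb long. The gaps from Tdpoz4 to Tdpoz3, 28.5 kb, and from Tdpoz3 to Tdpoz5, 133.2 kb, have the same length in both builds. Aligned pair by pair in mm9, the genes were 77.8% to 88.1% identical over 10 pairs, with a median of 83.3%. Tdpoz1 and Tdpoz3 were the most alike and Tdpoz1 and Tdpoz4 the least. The coding sequences in mm9 give proteins of 361 residues for Tdpoz1, 365 for Tdpoz3, 370 for Tdpoz4 and 340 for Tdpoz5.

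The mm9 windows around the annotated starts of Tdpoz4 and Tdpoz5 are shown because they belong to the neighbours of Tdpoz3 on either side, and no H3K9me3 peak or region of either build touched them. Each runs 5′ to 3′ on the gene's strand, with 250 bases before the annotated start in lower case and the first 50 bases of the annotated gene in capitals. The models of both genes hold coding sequence only, so the capitals open with the start codon.
Tdpoz4, chr3:93600070-93600369, plus strand: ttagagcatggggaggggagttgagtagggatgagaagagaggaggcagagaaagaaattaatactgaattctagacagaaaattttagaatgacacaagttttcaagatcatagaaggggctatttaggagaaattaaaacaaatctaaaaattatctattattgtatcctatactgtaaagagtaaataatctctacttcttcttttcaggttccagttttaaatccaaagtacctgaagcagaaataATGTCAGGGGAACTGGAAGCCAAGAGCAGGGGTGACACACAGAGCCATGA
Tdpoz5, chr3:93765187-93765486, minus strand: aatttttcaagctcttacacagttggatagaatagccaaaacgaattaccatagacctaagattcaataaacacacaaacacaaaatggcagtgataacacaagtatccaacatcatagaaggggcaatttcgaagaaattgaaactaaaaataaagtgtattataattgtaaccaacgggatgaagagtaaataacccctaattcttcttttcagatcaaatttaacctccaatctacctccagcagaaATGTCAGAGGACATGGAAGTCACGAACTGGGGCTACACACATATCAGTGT
Both windows are identical to those RefSeq gives for the same genes in GRCm38.p6. They were 73.4% identical to each other, less than the 78.8% over the genes themselves. CpG pairs were few, with 0 in the window of Tdpoz4 and 4 in that of Tdpoz5, and Tdpoz1 and Tdpoz2 had 2 each. Over 22362 protein-coding 5′ ends of mm9 the median was 11, and 30.2% had 4 or fewer. The GC content of the windows of these 4 genes was 35.7% to 42.3%, against a median of 55%. The windows of Tdpoz4 and Tdpoz5 are placed by the start codon and those of all genes by the annotated 5′ end. The sites compared are therefore not alike, and the values do not describe the promoters of these 2 genes. The annotated mm9 gene of Tdpoz2 also opens with ATG, and the window of Tdpoz1 is not identical to that of RefSeq. Their values are not to be read as those of promoters either.

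The wide mm9 regions and the narrow mm10 peaks gave different pictures at the genes. In mm9, 1 of the 5 genes, Tdpoz3, had its start and its whole body inside a region of both replicates. In mm10 none of the 5 bodies was overlapped by a peak in the replicated list, the pooled list or the list of either replicate. The narrow peaks lay beside the genes instead, and most of them lay within 45 kb past the end of Tdpoz3.

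Tdpoz3 sat in the widest H3K9me3 region of the Tdpoz span. In mm9 replicate 1 the region was chr3:93613801-93663800, 50 kb wide, with a fold enrichment of 3.34 as deposited. In replicate 2 it was chr3:93613801-93665800, 52.0 kb wide, with a fold enrichment of 4.54. Both replicates therefore listed the same start for the region and ended it 2 kb apart. The bounds of the mm9 regions in the span fall at even steps, so a shared start is not agreement to the base. Only 28 of the 43006 regions of replicate 1 were wider, and 33 of the 53405 of replicate 2, with 1 wider on chromosome 3 in each. The mm9 list deposited for the whole series placed a region of 50.2 kb there with a fold of 3.72. In width the region was thus near the top of each list, but in strength it was not, since 14462 regions of replicate 1 and 13697 of replicate 2 had a higher fold.

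A promoter was taken as 1 kb either side of any annotated transcript start and called when bases covered in both mm9 replicates overlapped it. By this rule 1 of the 5 Tdpoz genes was called, Tdpoz3, beside 5.54% of protein-coding genes (1239 of 22367). The promoter of Tdpoz3 was covered along its whole length in both replicates, and its fold enrichment was 3.94 ± 0.85 (SD, n = 2), the mean of the values of the 2 regions above. Among the 1239 called promoters 579 had a higher mean fold, and their median was 3.80, so Tdpoz3 stood near the middle. The promoter windows of Tdpoz1, Tdpoz2, Tdpoz4 and Tdpoz5 were not touched by a region in either replicate or in the whole-series list. The mm9 models of Tdpoz3, Tdpoz4 and Tdpoz5 hold coding sequence only, so their windows are centred on the start codon. Where transcription of these genes starts is not given, which limits the comparison with all protein-coding genes. A count of 1 in 5 is 1 gene, and it is not told apart from the share over all genes. The protein-coding promoters outside the span with the most similar pair of folds were those of 1700110I01Rik, with 3.29 and 4.56 in replicates 1 and 2, Serpina3j, with 3.28 and 4.56, and Arhgap33, with 3.40 and 4.55. Likeness was the Euclidean distance of the log2 folds over the 2 replicates, and these genes lie on chromosomes 14, 12 and 7.

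Gene bodies were read in the same way. In mm9 1 of the 5 bodies was overlapped by bases covered in both replicates, Tdpoz3, beside 6.46% of protein-coding genes 1 to 7 kb long (343 of 5307). In mm10 0 of the 5 were overlapped by a replicated peak, beside 30.8% of all protein-coding genes (6732 of 21887) and 8.18% of those 1 to 7 kb long (389 of 4758). Short genes are overlapped less often, so the second share is the nearer one for the Tdpoz genes, and 0 of 5 does not stand apart from it. The windows of 1 kb either side of the RefSeq starts held no peak in any of the 4 mm10 lists either, with the strand taken from GENCODE M1.

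**Figure D1:**
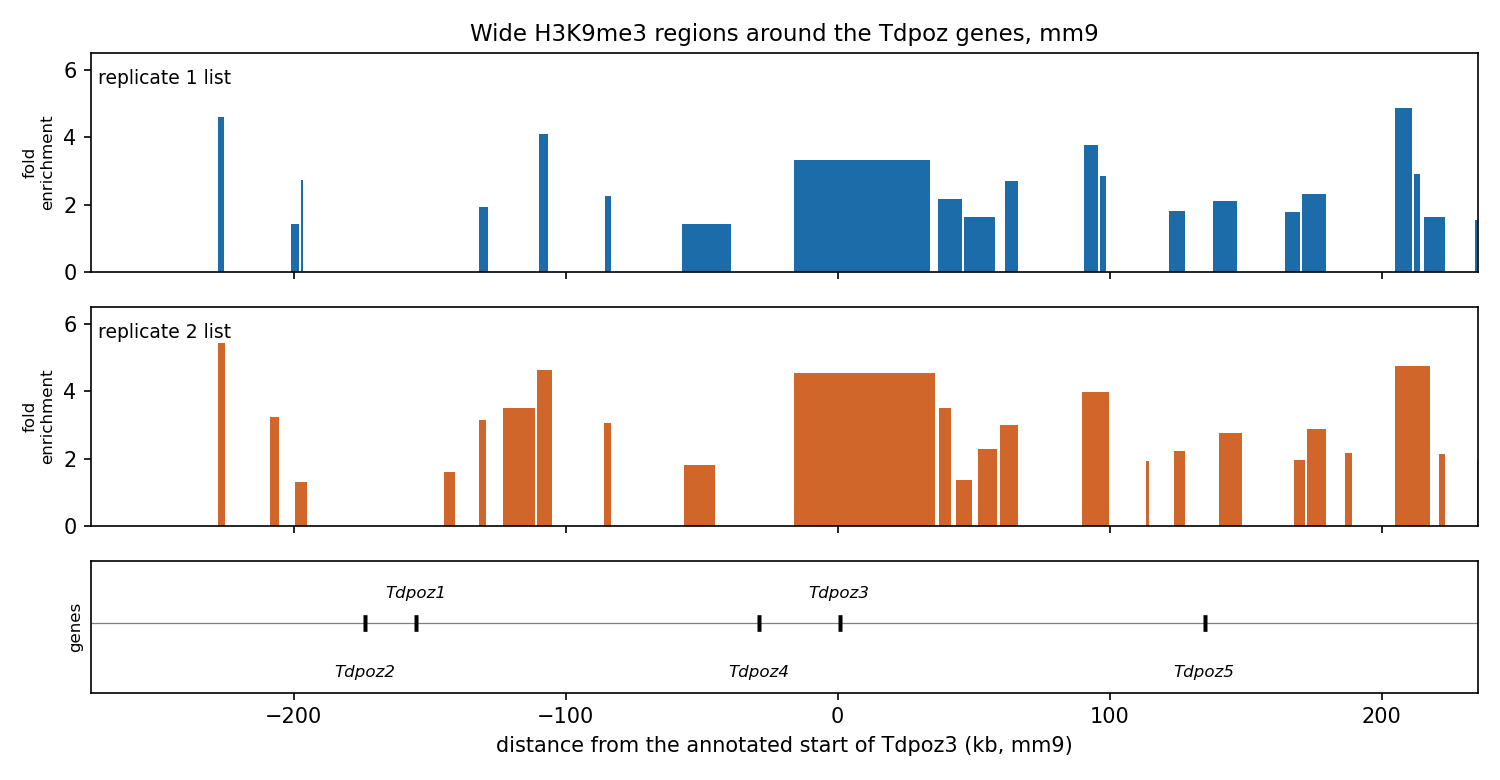
Deposited fold enrichment (vertical axis, linear) of the wide mm9 regions of replicate 1 and replicate 2 along the Tdpoz span, against distance from the annotated start of Tdpoz3 in kb. Each bar is 1 region drawn at its true width, and the block over Tdpoz3, 50 kb in replicate 1 and 52.0 kb in replicate 2, is the widest in both.

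Tdpoz3 also had the most narrow peaks near it. In mm10 13 replicated peaks lay within 10 kb of the gene and covered 36.7% of that sequence, with 17 peaks and 23.0% in replicate 1 and 16 peaks and 35.8% in replicate 2. The nearest peak, chr3:93827410-93827692, began 292 bp past the end of the gene with a fold enrichment of 4.29. In replicate 1 it began 373 bp past the end with 3.67, and in replicate 2 319 bp past the end with 3.60. Before the gene the nearest replicated peak, chr3:93823248-93823783, began 2.77 kb before its start, with a fold of 2.67, and with 2.83 in replicate 1 and 2.75 in replicate 2. The body of Tdpoz3 thus lay between narrow peaks on both sides, within sequence that the mm9 lists join into 1 region.

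Tdpoz4, the neighbour of Tdpoz3, had a single replicated peak within 10 kb, chr3:93798068-93799096, which began 557 bp past its end with a fold of 6.45. The nearest peak of replicate 1 began 572 bp past the end with a fold of 5.46, and that of replicate 2 began 327 bp past it with 3.55. In mm9 Tdpoz4 was clear, and its nearest region was that of Tdpoz3, 12.4 kb away, in replicate 2. In replicate 1 it was a region of fold 1.43 that ended 9.52 kb before the start of Tdpoz4. The whole-series list brought a region of fold 1.29 to 4.72 kb from it.

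Tdpoz2, like Tdpoz4, was nearer to H3K9me3 in mm10 than in mm9, the opposite of Tdpoz3 and Tdpoz5. In mm10 a replicated peak, chr3:93651211-93651507, ended 34 bp from the gene's downstream end, with a fold of 4.43. Replicate 1 placed it at 37 bp with 4.16, and replicate 2 at 42 bp with 3.37. In mm9 the nearest region of replicate 1 lay 22.1 kb from Tdpoz2 and that of replicate 2 20.7 kb from it. A narrow peak close to the gene in all 4 mm10 lists was thus matched by no region within 20 kb in mm9.

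Tdpoz1 had no peak or region within 5 kb in any list. In mm10 the nearest replicated peak was the one beside Tdpoz2, 17.8 kb away, and replicates 1 and 2 had their nearest at 17.8 kb and 15.1 kb. In mm9 the nearest region lay 22.6 kb upstream in replicate 1 and 9.98 kb upstream in replicate 2, with folds of 1.93 and 1.62. The longest stretch without a base covered in both mm9 replicates, chr3:93433401-93498200, 64.8 kb long, held both Tdpoz2 and Tdpoz1.

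Tdpoz5 was the gene farthest from a narrow peak. Its nearest replicated peak was 89.1 kb away, on its downstream side, and the nearest of replicates 1 and 2 were 95.0 kb and 89.2 kb away. Only the pooled list had a nearer one, at 25.2 kb, with a fold of 2.55. In mm9 a region lay 2.76 kb upstream of Tdpoz5 in replicate 1, with a fold of 2.09, and 4.96 kb upstream in replicate 2, with a fold of 2.75. Bases covered in both mm9 replicates made up 41.0% of the sequence within 10 kb of Tdpoz5, and mm10 peaks of any list made up 0%. The order of the 5 genes by distance to H3K9me3 therefore differed between the builds, with Tdpoz3 the nearest and Tdpoz1 and Tdpoz2 the farthest from bases covered in both mm9 replicates, and Tdpoz2, Tdpoz3 and Tdpoz4 within 1 kb and Tdpoz5 the farthest in mm10.

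**Figure D2:**
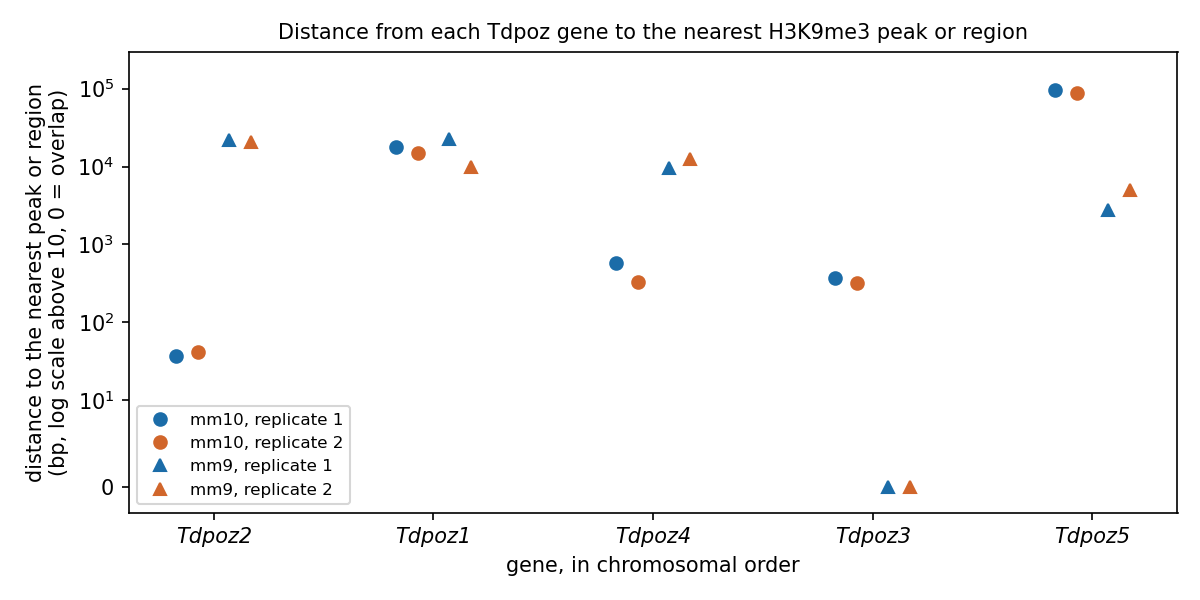
Distance in bp from each Tdpoz gene to the nearest H3K9me3 peak (mm10, circles) or region (mm9, triangles) in replicate 1 and replicate 2, on an axis that is linear below 10 bp and logarithmic above it. Tdpoz3 is at 0 in mm9 in both replicates, Tdpoz2 is at 37 and 42 bp in mm10 but above 20 kb in mm9, and Tdpoz5 is at 95.0 and 89.2 kb in mm10.

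Over the whole Tdpoz span both kinds of list held more H3K9me3 than the genome at large. In mm9, bases covered in both replicates made up 26.6% of the span, against 8.31% of chromosome 3 and 7.42% of the placed chromosomes. Replicate 1 covered 31.8% and replicate 2 34.5%, against 8.41% and 9.70% over the placed chromosomes. Of 5171 windows of the same length, 120 were covered more, 2.32% of them. In mm10 the 47 replicated peaks covered 5.23% of the span, against 3.86% of chromosome 3 and 3.42% of the placed chromosomes, and 1081 of 5332 windows, 20.3%, were covered more. Replicate 1 covered 3.79% with 55 peaks and replicate 2 5.84% with 70 peaks. The span thus held 3.58 times the share of the placed chromosomes in mm9 and 1.53 times in mm10. The mm9 regions were wider than usual and weaker, with a median width of 5200 bp in replicate 1 and 4800 bp in replicate 2, against 4000 and 3600 bp in the whole lists, and a median fold of 2.24 and 2.81, against 2.84 and 3.38.

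The coverage was uneven along the cluster. The sequence between Tdpoz2 and Tdpoz1 held no replicated peak in mm10 and no region in mm9, and 1 peak of fold 3.04 in mm10 replicate 2. Between Tdpoz1 and Tdpoz4 replicate 1 covered 2.83% in mm10 and 21.9% in mm9, and replicate 2 covered 4.57% and 30.1%. Between Tdpoz4 and Tdpoz3 the mm10 shares were 7.57% in replicate 1 and 13.0% in replicate 2, and the mm9 share was 56.6% in both. Between Tdpoz3 and Tdpoz5 they were 8.89% and 13.6% in mm10, and 53.3% and 55.2% in mm9. The 2 intervals that touch Tdpoz3 were the most covered in both replicates and both builds. Past Tdpoz5 the builds parted, with 0% in both replicates in mm10, and 40.4% in replicate 1 and 37.4% in replicate 2 in mm9.

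**Figure D3:**
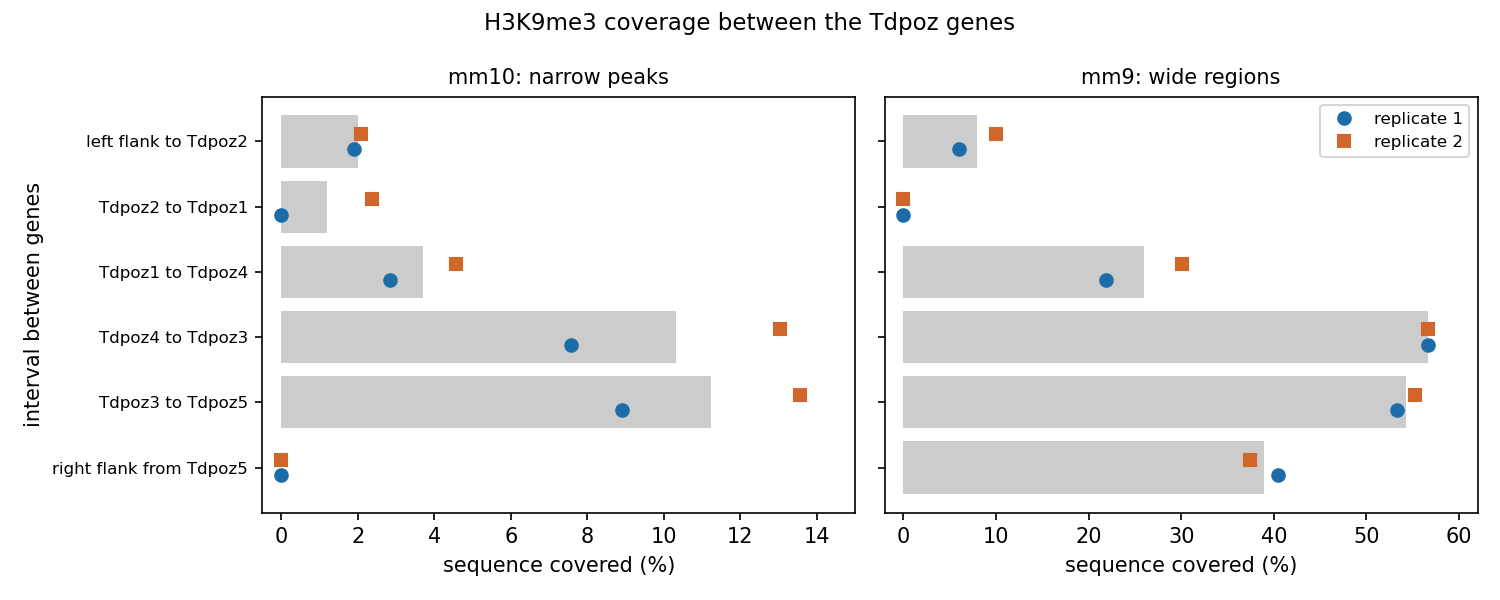
Percent of sequence covered in each interval between the Tdpoz genes, for narrow mm10 peaks (left) and wide mm9 regions (right). Circles are replicate 1, squares replicate 2 and grey bars their mean. The intervals on either side of Tdpoz3 are the highest in both builds, and the right flank is at 0% in mm10 and at 40.4% and 37.4% in mm9.

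**Figure D4:**
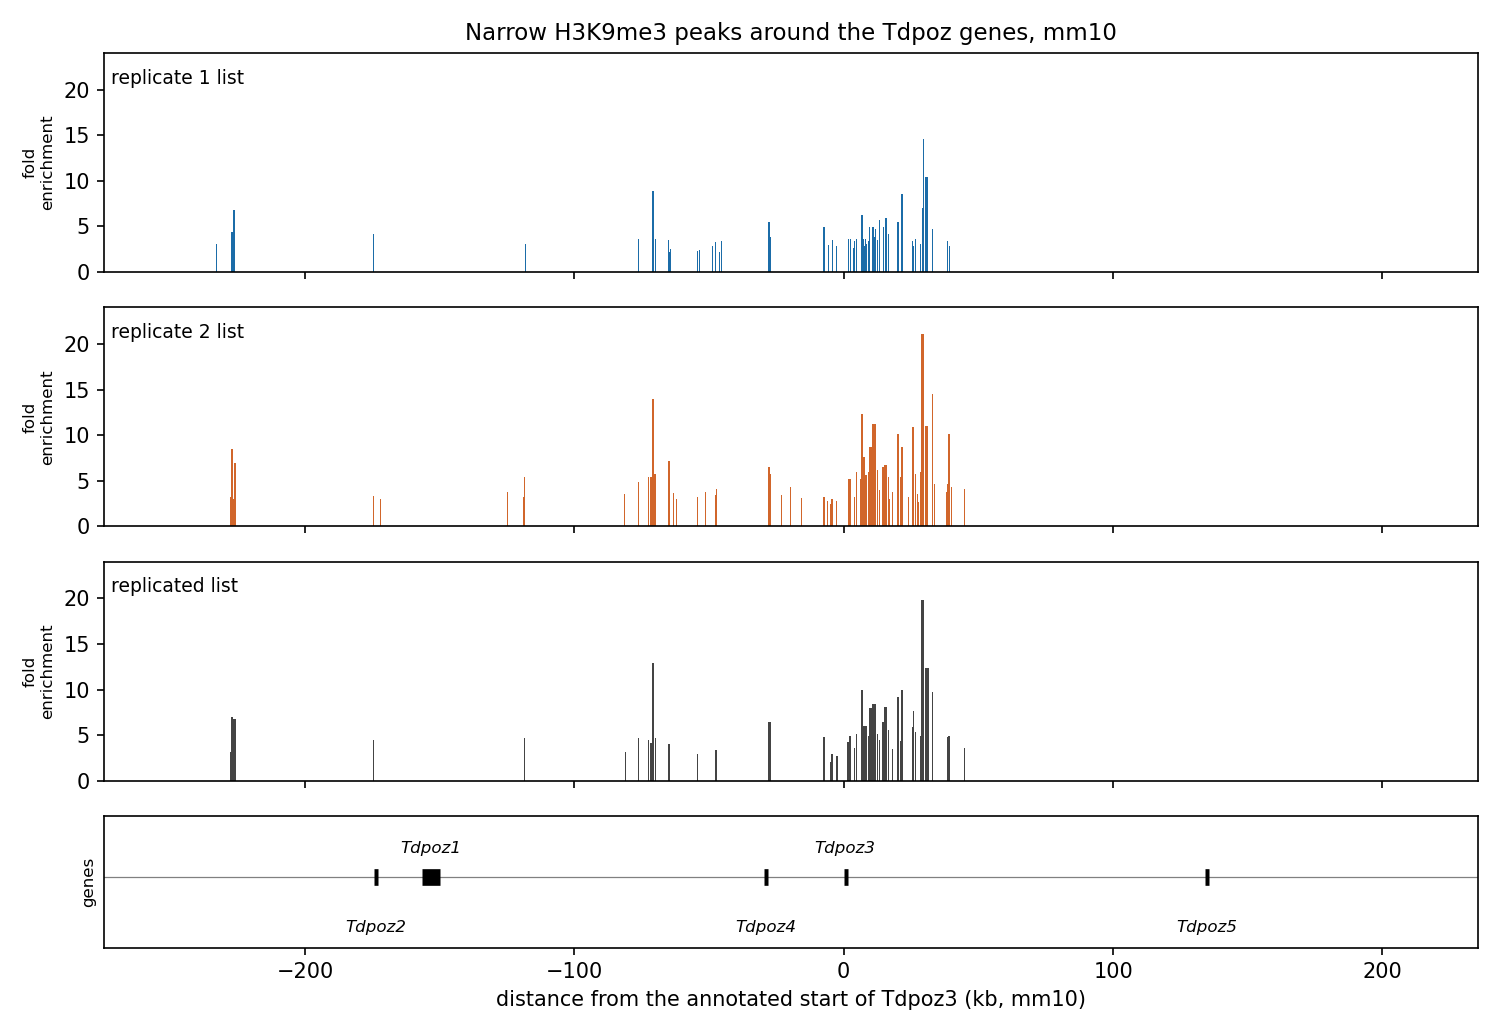
Deposited fold enrichment (vertical axis, linear) of the narrow mm10 peaks of replicate 1, replicate 2 and the replicated list along the Tdpoz span, against distance from the annotated start of Tdpoz3 in kb. Peaks narrower than 0.4 kb are drawn 0.4 kb wide so that they can be seen. They crowd within 45 kb past Tdpoz3, where the highest reaches 19.8 in the replicated list, and none lies around Tdpoz5.

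Of the 47 replicated peaks 28 lay in the first 45 kb past the end of Tdpoz3, a length chosen after the peaks had been seen. They covered 37.0% of that sequence, with 26.3% in replicate 1 and 40.2% in replicate 2. In mm9 the same distance past Tdpoz3 was covered to 92.4% in each replicate. The strongest peak, chr3:93854879-93855982, began 28.9 kb past the start of Tdpoz3 with a fold enrichment of 19.8 and a −log10 q of 122.7, and 396 of the 123309 replicated peaks on the placed chromosomes were stronger. It had a fold of 14.6 in replicate 1 and 21.0 in replicate 2. The peak next to it, chr3:93856045-93857489, had 12.4, with 10.4 and 11.1 in the replicates. The second strongest of the span, chr3:93754783-93755592, lay apart from these, between Tdpoz1 and Tdpoz4, with a fold of 12.9, and with 8.84 in replicate 1 and 13.9 in replicate 2.

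Replicate 2 gave the higher values at most of these peaks. Of the 47, 39 (83.0%) were overlapped by a peak in both per-sample lists, 7 in replicate 2 alone, 0 in replicate 1 alone and 1 in neither. Over the 123309 replicated peaks of the placed chromosomes the counts were, in the same order, 97282 (78.9%), 21411, 3993 and 623. At 32 of the 39, 82.1%, replicate 2 had the higher fold, and the share over all replicated peaks was 80.2%. The share in the Tdpoz span was thus close to that of the whole list. The 47 peaks had a median fold of 4.95, against 4.20 over all, and a median width of 468 bp, against 528 bp. A fold of at least 4 was reached by 37 of them, 78.7%, against 56.5% of all.

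Beyond 45 kb past Tdpoz3, a stretch of 189.2 kb to the end of the span that includes Tdpoz5, mm10 held no peak in the replicated list or in either replicate, and the pooled list held 1. The longest stretch without a replicated peak began at 93871163 and ran 190.2 kb to the end of the span, and the next replicated peak lay 69.8 kb beyond it. In mm9 the same stretch was covered to 36.9% in replicate 1 and 36.7% in replicate 2, and 29.0% was covered in both. Replicate 1 had its strongest region of the span here, chr3:93834801-93841200, with a fold of 4.85. That of replicate 2, chr3:93402001-93404600, with 5.44, lay in the flank before Tdpoz2.

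The sequence of the Tdpoz span is highly duplicated. Of the 36-mers starting in the mm9 span, 34.7% occurred once in the genome on either strand, against 85.6% of 78197 positions sampled along chromosome 3. The share was 40.4% in the first 45 kb past Tdpoz3 and 10.6% in the stretch beyond, where mm10 had no replicated peak. It was 73.3% in the flank before Tdpoz2 and 12.1% in the flank past Tdpoz5. The widest region, over Tdpoz3, held 51.3%. Within the genes the single-copy share was 36.6% for Tdpoz1, 38.0% for Tdpoz2, 28.1% for Tdpoz3 and 40.7% for Tdpoz4. Tdpoz5 had 0%, with a median of 4 copies of each 36-mer. With 100-mers Tdpoz5 reached 2.74%, the stretch beyond 45 kb 32.5% and the first 45 kb 80.7%, against 94.3% along chromosome 3. Bases covered in both replicates held 32.5% single-copy 36-mers, against 35.5% in the rest of the span, which includes most of the flank before Tdpoz2. In the first 45 kb covered bases held 43.8%, and in the stretch beyond 11.4%, each slightly above the share of the whole part. With 100-mers covered bases held 62.8%, against 60.1% in the rest of the span. Neither read length nor the treatment of reads with several matches is stated in the sources used here. The builds and list types also differ together, and the part of duplicated sequence in the difference between mm9 and mm10 was not tested.

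**Figure D5:**
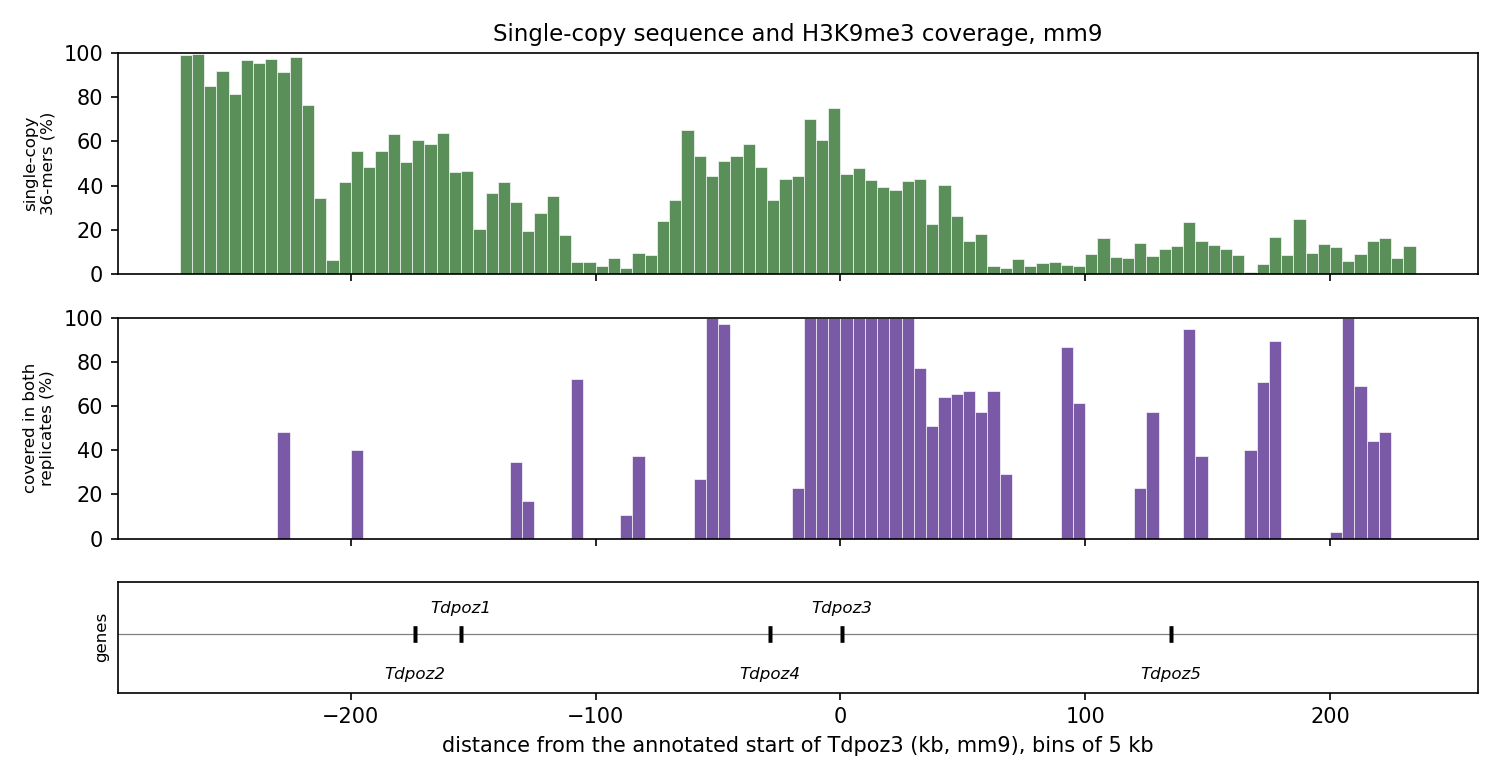
Percent of 36-mers present once in the mm9 genome (top) and percent of bases covered in both mm9 replicates (middle) in bins of 5 kb, against distance from the annotated start of Tdpoz3 in kb, with the Tdpoz genes below. Coverage continues past Tdpoz5 in sequence where few 36-mers are single-copy, and the flank before Tdpoz2 holds mostly single-copy sequence with little coverage.

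Besides the Tdpoz genes, 7 protein-coding genes are annotated in the mm9 span. The promoters of 2 of them were called by the rule above, beside 5.54% of all protein-coding genes. A count of 2 within 1 span is small, and its difference from that share was not tested. Gm5773 lay wholly inside a region between Tdpoz1 and Tdpoz4, with a promoter fold of 1.63 ± 0.28 (SD, n = 2). Gm9125, which RefSeq names Tdpoz9, a further gene of the family, had 1.88 ± 0.36, and 46.6% of its body was covered. Both values were below the 3.94 of Tdpoz3. Gm9117 had a region in replicate 2 alone, with a fold of 1.92. Gm9107, Gm5852, Gm9116 and S100a10, which encodes a partner of annexin A2, had none. In mm10 the span holds 14 other annotated genes, of which 11 are pseudogenes. These 11 include Gm5773, Gm9117, Gm9107, Gm5852 and Gm9116, which the mm9 annotation gives as protein-coding. A replicated peak overlapped 1 of the 14, the pseudogene Gm18433, over 34.3% of its length. The share was 8.18% among protein-coding genes 1 to 7 kb long, and no share over pseudogenes is given here. A count of 1 in 14 is not told apart from 8.18%. The protein-coding genes Tdpoz9 and S100a10 were clear.

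Other genes of the 2-cell stage were examined as a list. Of 30 annotated entries found for 43 symbols of this stage, 3 were called by the same rule in mm9, 10%, beside the 5.54% of protein-coding genes, a count too small to be told apart from that share. The count was 7 and 11 with windows of 2.5 and 5 kb, for which no share over all genes is given. The 3 were Zscan4b at 4.64 ± 3.20 and Zscan4e at 3.82 ± 1.93, members of a family of zinc finger genes with a SCAN domain that is active in brief pulses in stem cells, and the zinc finger gene Zfp353 at 2.35 ± 0.48 (SD, n = 2 each). The replicates were far apart at Zscan4b, with 2.38 in replicate 1 and 6.91 in replicate 2. Zscan4c, Zscan4d and Zscan4f had none, and Zfp352 had a region in replicate 2 alone, with a fold of 4.58.

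Relatives of the Tdpoz proteins by domain or by partner were examined as a second list, in which 17 of 21 symbols were found. Of these, 2 were called, 11.8%, beside 5.54% of protein-coding genes, and a count of 2 is not told apart from that share. Gm9125, which lies inside the span, was 1 of the called genes. Of the 17 genes 4 lie in the span and were also counted there, and only Gm9125 among these was called. Spop and its paralog Spopl, the nearest relatives outside the cluster, had no region at the promoter in either replicate, and neither did Gm10696 and Gm10697, which lie on chromosome 3 beyond the span. The genes for the ligase parts Cul3 and Rbx1 had none.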

How the data were processed

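H3K9me3 ChIP-seq of 2 replicates, 1 group, was analysed from peak lists. Each peak carries a fold enrichment that the authors deposited as a linear ratio, with a baseline not given in the sources used here. For the narrow mm10 peaks the deposited significance was −log10 p and −log10 q. For the wide mm9 regions the deposited p-value and q-value columns were read as linear from their values, with p at most 0.00971, although no source used here states their scale and neither column was used. The pooled mm10 list came, per the deposited file lists, from both replicates' alignments and the replicated list from the pooled and per-sample lists. No source used here gives the aligner, the caller or the make-up of the whole-series mm9 list.

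Overlaps of at least 1 bp were computed per build with Python 3.11.15 and numpy 2.4.6 on chromosomes 1 to 19, X and Y, and no coordinates were converted. The overlap code was checked on simulated intervals. In mm9 a base counted when both replicates covered it. Strand in mm10 was taken from GENCODE M1. Wide regions reach a start from further away than narrow peaks do. The 36-mers, 50-mers and 100-mers of the mm9 span were counted on both strands of the genome, with 1 position in 2000 of chromosome 3 for comparison. Sequence pairs were aligned with Biopython 1.88.

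Named genes are the 5 Tdpoz genes, every protein-coding gene of the span, the called genes of each list apart from 1 not reported here, the first 4 uncalled genes of each list, and the 3 promoters nearest to Tdpoz3's in fold. The members and lists were chosen with earlier results of these data known. Cul3, Rbx1 and Gm18433 were added after their values had been seen. The start window of 1 gene was left out likewise. Alternatives were each replicate alone, the pooled and whole-series lists, a fold of at least 4, a −log10 q of at least 2, peaks within 1 kb merged, other flanks and promoter windows, and larger overlaps.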

Additional observations from a re-analysis of the deposited data

How the results depend on the processing

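Of 56 alternatives to the 8 main values, 32 stayed within the limits set (a count within 1.5 times, a share or fold within 1 SD of the replicates) and 24 moved. The count of 0 Tdpoz bodies overlapped in mm10 was unchanged under all 7 of its alternatives, but some of these could not have changed it. The cuts on q and fold and the larger overlap can only lower a count, although they are included in the 32. The q cut also removed no replicated peak of the span, so the covered share in mm10 could not move under it either. The pooled list, each replicate alone and merged peaks could have raised the count of 0, and did not. The covered share of the span in mm10, 5.23%, was 7.90% without flanks. In mm9, 26.6% became 31.8% to 34.5% with 1 replicate left out, 39.7% for bases in either replicate, 39.5% in the whole-series mm9 list, 32.7% without flanks, 29.2% with flanks of 50 kb and 2.43% at a fold of at least 4. The 26.6% counts bases covered in both replicates. Leaving 1 replicate out or taking bases in either can therefore only raise it, and the cut on fold can only lower it. The Tdpoz promoters called went from 1 to 2, with Tdpoz5 added, for windows of 5 kb, and to 0 at a fold of at least 4 in both replicates, since replicate 1 had 3.34 at Tdpoz3. The 2-cell genes called went from 3 to 7 and 11 with windows of 2.5 and 5 kb, 4 to 5 with 1 replicate left out, 6 in the whole-series mm9 list and 0 at a fold of at least 4. The relatives called went from 2 to 4 and 8 with those windows, 1 at the 5′ end only, 1 where at least 50% of the window was covered, 2 to 4 with 1 replicate left out, 5 in the whole-series mm9 list and 0 at a fold of at least 4. For none of these other promoter settings is a share over all protein-coding genes given here. With wider windows or 1 replicate left out that share cannot be lower than the 5.54% of the main rule. At the 5′ end only, with at least 50% of the window covered, or at a fold of at least 4, it cannot be higher. In the whole-series mm9 list it is unknown. The counts under these settings are therefore not to be read against 5.54%. The strongest mm10 peak, at 19.8, was 14.6 to 21.0 with 1 replicate left out. The strongest mm9 regions of the 2 replicates are different regions, in opposite flanks, and their mean fold was 5.14. Without flanks the mean of the strongest of each replicate was 4.36. With 1 replicate left out the value stayed within 1 SD by construction, as 5.14 is the mean of 2 values. The cause of these shifts was not tested, beyond the settings' own construction. Depth is unknown and limits what an absent peak can show. No paired analysis was possible because there is 1 group.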
